A study of Homo sapiens with 22 samples.

Results

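Of the 20411 protein-coding genes in the RNA-seq tables of MOLM-13 and NB4 cells, 78 carried the symbol of a mitochondrial ribosomal protein (MRPL or MRPS with a number), 49 of the large and 29 of the small subunit. Members were the genes of these with a mean level of at least 1 RPKM (reads scaled to gene length and to the size of the library) over the 6 libraries of a cell line. These were 73 genes in MOLM-13 cells (46 large, 27 small) and 76 in NB4 cells (48 large, 28 small), and all 73 of MOLM-13 cells were among those of NB4 cells. Both lines are human acute myeloid leukemia (AML) lines, MOLM-13 with an MLL fusion and NB4 from promyelocytic leukemia, and both were labelled wild type. Cells received 2 μM FP54, a compound made to degrade the m6A demethylase FTO, or the solvent DMSO, for 48 hours, with 3 libraries per treatment and cell line. The labels do not say that these came from separate cultures, so p-values measure the spread between these libraries, which may be technical. The question was how the mRNAs of the mitochondrial ribosome responded to FP54, and whether the subunits and the cell lines differed.

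The mitochondrial ribosome, or mitoribosome, translates the few mRNAs encoded by mitochondrial DNA, all of them for subunits of the respiratory chain and ATP synthase. Its proteins are encoded in the nucleus, made in the cytosol and imported, and they join ribosomal RNA made inside the organelle. The small subunit binds and decodes the mRNA, while the large subunit forms the peptide bond and feeds the new chain through its exit tunnel to the inner membrane. Some of the proteins descend from the bacterial ribosome and others exist in mitochondria only. Mitochondrial translation is known as a process that AML cells depend on. Symbol and location do not match for every gene, since MRPS30 and MRPS18A sit in the large subunit and MRPS36 belongs to the 2-oxoglutarate dehydrogenase complex.

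Read numbers were recovered from the RPKM values. In MOLM-13 cells the library totals were 16542566, 16299699 and 17346915 reads in DMSO replicates 1 to 3, and 19191055, 5829731 and 12028683 reads in FP54 replicates 1 to 3. In NB4 cells they were 20654055, 21306612 and 22344266 reads for DMSO, and 10595646, 11637315 and 13071302 reads for FP54. All FP54 libraries of NB4 cells were thus shallower than every DMSO library, and depth and treatment cannot be told apart there. The median member still had 504.5 or more reads in each NB4 library, and 205 reads in the shallowest MOLM-13 library, FP54 replicate 2.

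The lineage markers fitted the labels in part. CD33, SPI1, CEBPA and PTPRC were present in both lines. FLT3, MEIS1 and HOXA9 stood at 74.0, 6.36 and 21.3 RPKM in DMSO-treated MOLM-13 cells and at 5.67, 0.157 and 0.234 RPKM in NB4 cells. Of the genes listed for NB4 cells, HGF was at 3.32 RPKM there against 0.1005 RPKM in MOLM-13 cells, but ELANE was at 0.15 RPKM in NB4 and 186 RPKM in MOLM-13 cells, and PRTN3 at 61.0 and 413 RPKM. Of 7 markers of other lineages, EPCAM at 8.15 RPKM in NB4 cells was the only one above 1 RPKM in either line. MPO, the myeloperoxidase of granules, fell with FP54 from 16.1 to 3.79 RPKM in MOLM-13 and from 2170.2 to 1116 RPKM in NB4 cells, and the part of such changes in cell state in the results was not tested. FTO mRNA checks little, since FP54 acts on the protein: it was 1.01 ± 0.0767 RPKM (SD, n = 3) with DMSO and 1.01 ± 0.118 RPKM with FP54 in MOLM-13 cells, and 2.73 ± 0.18 and 2.03 ± 0.0782 RPKM in NB4 cells (log2 fold change -0.41, limma adjusted p = 0.0119).

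In DMSO-treated cells the members spanned a wide range of levels. With DMSO, the median large-subunit member of MOLM-13 cells stood at 16.9 RPKM and the median small-subunit member at 10.2 RPKM. The corresponding medians in NB4 cells were 23.4 and 16.7 RPKM. The 2 most abundant mRNAs of each subunit in MOLM-13 cells were MRPL18 of the central protuberance (89.6 ± 9.89 RPKM, SD, n = 3), MRPL51 (82.9 ± 8.14 RPKM) and, in the small subunit, MRPS34 (71.2 ± 15.6 RPKM) and MRPS9 (57.9 ± 11.2 RPKM). Within each subunit the pair differed by less than the larger SD. In NB4 cells they were MRPL4 (135 ± 20.6 RPKM) and MRPL51 (112 ± 11.4 RPKM) in the large subunit, and MRPS34 (163 ± 40.2 RPKM) and MRPS26 (147 ± 23.6 RPKM) in the small subunit, where the latter pair again differed by less than their SDs. Of the 73 genes measured in both lines, 59 had the higher DMSO mean in NB4 cells, and the log2 means of the lines correlated with r = 0.82 across these genes. The tables of the lines were normalized separately and genes are not independent replicates, so no test was made of these levels.

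The members at the bottom of the range were mostly genes whose annotated exons lie partly inside another protein-coding gene on the same strand, often a readthrough transcript. Such sharing held for 13 of the 78 genes (16.7%), against 9.57% of all genes tested in NB4 cells. It held for 8 of the 10 members with the lowest mean RPKM in each line and for 1 of the 20 highest. The 13 genes had a median DMSO level of 1.47 RPKM in MOLM-13 and 3.36 RPKM in NB4 cells, and the other 65 had 16.0 and 23.8 RPKM. MRPL53, with 72.8% of its exon bases shared with CCDC142, had 1 read in 1 DMSO library of each line and none elsewhere. MRPL12, the stalk protein that contacts translation factors, shared 69.5% of its exon bases and reached 1.17 ± 0.807 RPKM (SD, n = 3) in MOLM-13 and 6.48 ± 0.562 RPKM in NB4 cells. MRPL38 (41.1% shared), MRPS24 (23.2%) and MRPS17 were also low. Counters of reads commonly leave out reads that fall on more than 1 gene, and whether this was done is not given in the sources used here, so the levels of these genes are uncertain. MRPL53 and MRPS24 fell below 1 RPKM in both lines, and MRPL12, MRPL38 and MRPS17 in MOLM-13 cells only, which leaves the 78 genes accounted for.

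**Figure D1:**
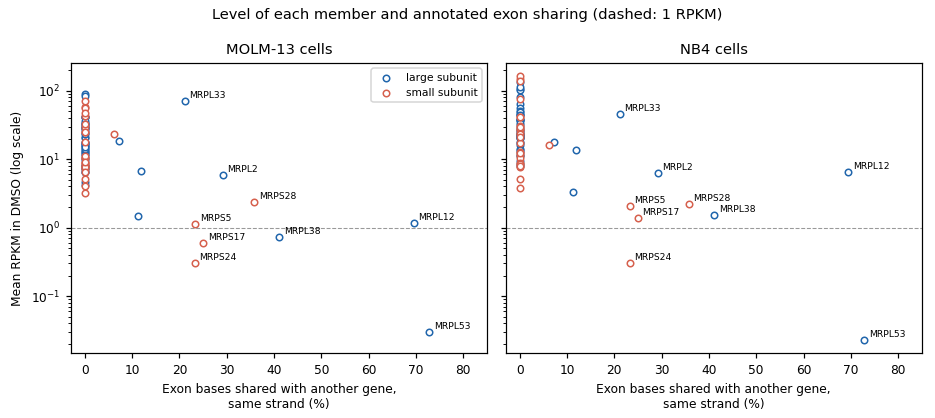
Mean RPKM of the 78 genes in 3 DMSO libraries (vertical axis, log scale) against the share of annotated exon bases that lie in another protein-coding gene on the same strand (horizontal axis, percent), for each cell line; points are genes, coloured by subunit. All 4 genes below the dashed line (a DMSO mean of 1 RPKM) in MOLM-13 cells and both in NB4 cells have shared exon bases, and MRPL33 (upper left) is a gene with shared bases and a high level.

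Few of these mRNAs were lower with FP54 in MOLM-13 cells. The calls used the cutoff of the study's methods, p below 0.01 with a change of 0.5 or more on the log2 scale, here by limma on log2(RPKM + 0.1). By it, 7 of 73 members fell and 2 rose. This is 9.59% called lower, against 9.04% of the 9710 genes tested, so the share of members called lower was near the background. For increases the background was 9.3%. At an adjusted p below 0.05, 9 members were lower (background 9.32%) and 2 higher (background 9.84%). The FP54 values lay below all DMSO values for 19 members (background 17.0%) and above them for 4 (background 20.2%). The fitted changes leaned downward all the same: 58 of 73 were below 0, with a median of -0.26 on the log2 scale in the large subunit and -0.26 in the small subunit, against 0.003 over all genes tested. The large subunit had 6 of 46 members called lower and the small subunit 1 of 27.

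The count of decreases depended on single libraries and moved most without 1 control library. DMSO replicate 2 of MOLM-13 cells stood nearer to the FP54 libraries: relative to the DMSO mean, its median member was at -0.25 (large subunit) and -0.19 (small subunit) on the log2 scale, where FP54 libraries lay at -0.20 to -0.33 and at -0.18 to -0.27. Without it, 26 of 73 members (35.6%) were called lower and 0 higher, against 12.6% and 9.49% of all genes. The large subunit had 18 of the 26 and the small subunit 8, and the small-subunit median went to -0.42. All 7 members called with every library were among the 26. Without DMSO replicate 3 or FP54 replicate 1, in contrast, 3 members (4.11%) were called lower, against 4.86% and 5.01% of all genes. Without DMSO replicate 1 there were 4 (5.48%, against 5.72% of all genes). Without FP54 replicate 2 the small-subunit median was -0.15. All these fits took the libraries as unpaired, although DMSO and FP54 libraries of this line deviated together under other numbers, as given in the closing section.

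MRPL36, a small large-subunit protein with a bacterial homologue, is the member the study follows, and was picked there with these libraries in view, so its decrease here is no independent evidence. In MOLM-13 cells it had 8.06, 3.78 and 7.73 RPKM in DMSO replicates 1 to 3 and 3.03, 1.97 and 2.56 RPKM in FP54 replicates 1 to 3. The FP54 values lay below all DMSO values, but DMSO replicate 2 came close to them. The mean went from 6.52 ± 2.38 to 2.52 ± 0.53 RPKM (SD, n = 3), a log2 fold change of -1.28 ± 0.28 (SE) with a limma adjusted p of 0.0144, the lowest fitted value of any member in this line. FP54 replicate 2 held 16 reads of this gene and the other libraries between 43 and 187.

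MRPL3, a core protein near the peptidyl transferase centre, had 34.1, 22.6 and 30.04 RPKM with DMSO and 11.4, 13.0 and 17.1 RPKM with FP54. All FP54 libraries lay below all DMSO libraries, and DMSO replicate 2 was the lowest control. The fitted change was -1.06 ± 0.20 (SE, limma adjusted p = 0.00781). MRPL47, a protein at the exit tunnel, had 25.5, 18.2 and 26.6 RPKM with DMSO and 12.2, 13.1 and 14.5 RPKM with FP54, again without overlap (-0.80 ± 0.17, limma adjusted p = 0.0127). The remaining calls were smaller. MRPL19 (-0.79), the mitochondria-specific MRPL42 (-0.71) and MRPL50 (-0.57), and MRPS35 (-0.53), the sole small-subunit gene, had limma adjusted p between 0.0218 and 0.0481. MRPS35 stood at 47.0, 42.2 and 52.7 RPKM with DMSO and 27.9, 39.2 and 31.7 RPKM with FP54. Its call was lost under median-ratio scaling, quantile normalization, no filter on low values and eBayes without a trend, and without DMSO replicate 1, DMSO replicate 3, FP54 replicate 1 or FP54 replicate 3.

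MRPS26 showed how the control library could decide a value. This mitochondria-specific small-subunit gene had 30.8, 11.6 and 32.6 RPKM with DMSO and 9.33, 13.3 and 13.3 RPKM with FP54. DMSO replicate 2 lay within the FP54 range and the other DMSO libraries far above it. The fitted change of -0.93 ± 0.34 (SE) had a limma adjusted p of 0.0817 and was not called. MRPS23 (-0.54) and MRPS9 (-0.52), which lie on either side of MRPS35 in fitted value, had overlapping groups and limma adjusted p of 0.0933 and 0.116.

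A few mRNAs went the other way in this line. MRPS6, the homologue of a bacterial small-subunit protein, had the highest fitted value of the small subunit at 0.24 (limma adjusted p = 0.311) and was at -0.08 in NB4 cells, called in neither. MRPL41, found in mitochondrial ribosomes and not in bacterial ones, had 37.3, 36.6 and 51.9 RPKM with DMSO and 81.8, 69.0 and 53.7 RPKM with FP54 in MOLM-13 cells. The lowest FP54 value exceeded the highest DMSO value by a narrow margin. It rose by 0.70 ± 0.19 on the log2 scale (SE, limma adjusted p = 0.0314). MRPL55 rose from 9.04, 6.25 and 9.14 RPKM to 16.1, 10.6 and 11.99 RPKM (0.66 ± 0.20, limma adjusted p = 0.0468), also without overlap. Neither was called without DMSO replicate 2, without FP54 replicate 1 or with no filter on low values. MRPL54, listed with the stalk, had 35.8, 27.2 and 34.7 RPKM with DMSO and 52.6, 41.97 and 42.1 RPKM with FP54, and missed the cutoff (0.49 ± 0.16, limma adjusted p = 0.0555).

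In NB4 cells a large share of the mitoribosomal mRNAs was lower with FP54. Of 76 members, 37 fell and 0 rose at the same cutoff, that is 48.7% called lower against a background of 10.7% and none called higher against a background of 18.6%. At an adjusted p below 0.05 the numbers were 53 lower (69.7%, background 22.0%) and 0 higher (background 29.8%), and limma-voom on the recovered reads also called 37 lower and 0 higher. FP54 and DMSO values did not overlap for 57 members with lower FP54 values (background 26.2%) and 2 with higher ones (background 34.3%). Fitted changes were below 0 for 71 of 76 members. The 5 above 0, MRPL10, MRPS16, MRPS17, MRPS18B and MRPS25, lay between 0.09 and 0.18, and all of them turned negative under median-ratio scaling. That scaling, which sets each library by the median of its gene ratios, moved the median of all genes from 0.07 to -0.13. It raised the share of decreases among all calls from 36.4% to 62.9% and the members called lower to 51 (67.1%), against 20.4% of all genes called lower under the same scaling. Relative to the median of all genes, the member median was -0.55 without it and -0.56 with it.

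**Figure D2:**
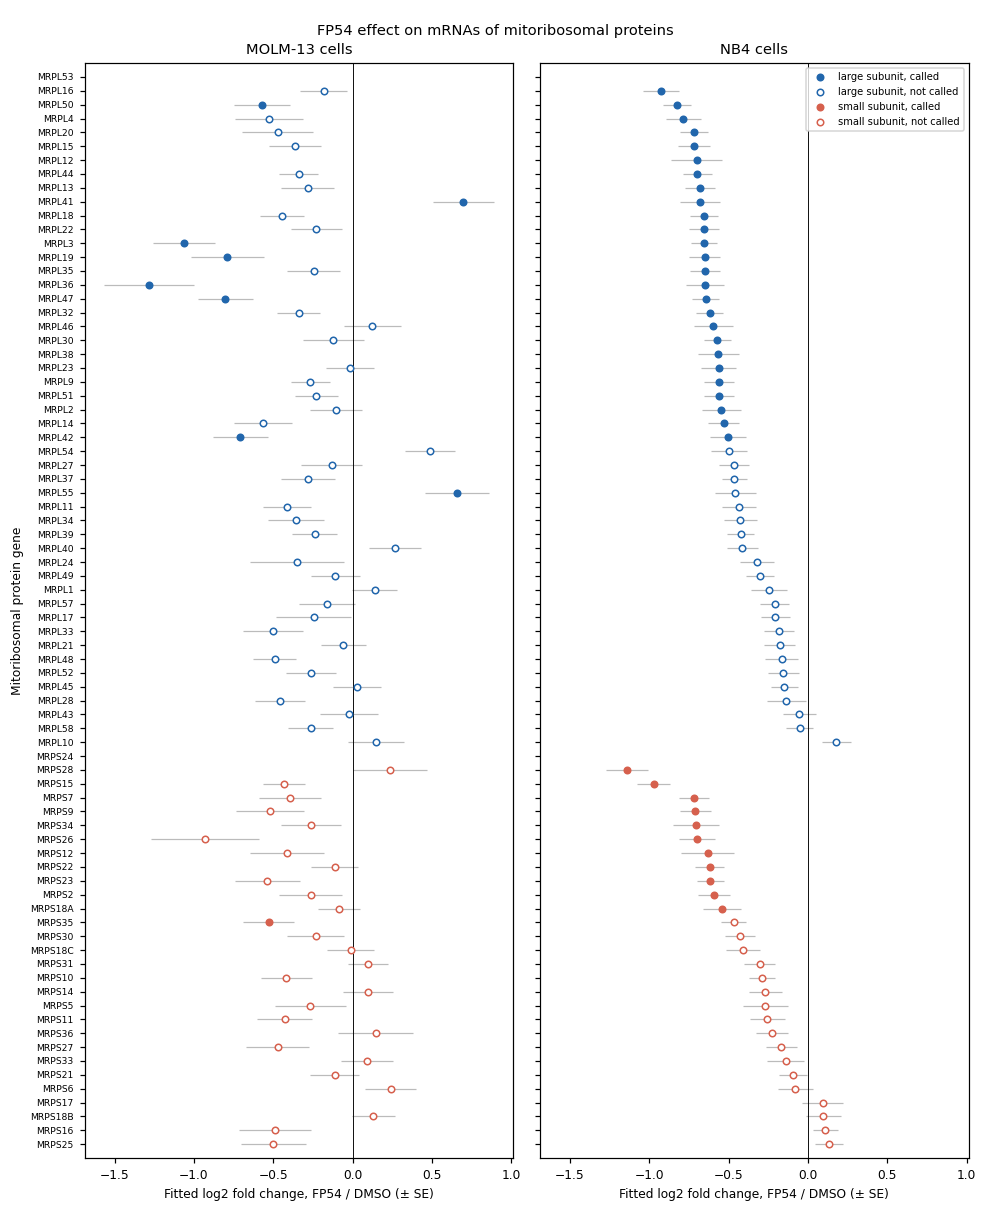
Fitted log2 fold change (FP54 over DMSO, with SE) of each member in MOLM-13 (left) and NB4 cells (right), with 3 libraries per group; filled points passed p below 0.01 and 0.5 on the log2 scale, colours give the subunit by symbol, genes are sorted by their NB4 value, and a row without a point was not tested in that line. Most NB4 points lie left of 0 with short error bars, and 37 are filled, against 9 in MOLM-13 cells.

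The strongest NB4 decreases were in both subunits. MRPS15, the homologue of a bacterial small-subunit protein, had 36.2, 46.7 and 40.1 RPKM with DMSO and 21.3, 21.5 and 19.5 RPKM with FP54. The FP54 libraries sat close together and well below the lowest control. It fell by 0.97 on the log2 scale (SE 0.10, limma adjusted p = 3.31e-05). MRPL16, a core large-subunit protein next to the tRNA sites, had 70.7, 94.5 and 77.8 RPKM with DMSO and 46.4, 40.5 and 40.1 RPKM with FP54, a clear gap (-0.93 ± 0.11, limma adjusted p = 8.17e-05). MRPS28 had the lowest fitted value, -1.14 ± 0.13 (limma adjusted p = 5.74e-05), with 2.29, 2.04 and 2.39 RPKM against 0.935, 0.899 and 1.05 RPKM. These are 86, 79 and 97 reads with DMSO and 18, 19 and 25 with FP54, and 35.8% of its exon bases lie in a readthrough gene, so its level is uncertain.

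Other large decreases in NB4 cells were those of the mitochondria-specific MRPL50 (-0.82) and of homologues of bacterial proteins: MRPL4 (-0.78), MRPL20 (-0.72), MRPS7 (-0.72) and MRPS9 (-0.71). All 5 had limma adjusted p of 0.000201 or less and no overlap between groups. For MRPL4, among the most abundant members, the values were 117, 157 and 130 RPKM with DMSO and 80.2, 78.9 and 73.8 RPKM with FP54. MRPL36 fell in NB4 cells as well, from 26.3, 33.8 and 34.3 RPKM to 22.1, 17.8 and 20.1 RPKM (-0.65 ± 0.12, limma adjusted p = 0.00124), near the middle of the members called. At the other end stood MRPL58, a peptidyl-tRNA hydrolase built into the large subunit, with 33.4 ± 1.52 RPKM (SD, n = 3) with DMSO and 32.2 ± 2.33 RPKM with FP54 (log2 fold change -0.05).

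The summed levels of the subunits kept a similar ratio with DMSO and with FP54 in each line. In NB4 cells the summed level of the large-subunit members was 1624 ± 144 RPKM (mean ± SD, n = 3) in the controls and 1130 ± 31.1 RPKM after FP54, and that of the small-subunit members was 921 ± 95.7 and 647 ± 13.6 RPKM. The single libraries ranged from 1478 to 1766 RPKM (DMSO) and from 1098 to 1160 RPKM (FP54) for the large subunit, without overlap. The ratio of large to small was 1.77 ± 0.0582 with DMSO and 1.75 ± 0.017 with FP54, a difference within the spread of the libraries. In MOLM-13 cells the large-subunit sum was 1034 ± 140 RPKM with DMSO, where replicate 2 stood at 872 RPKM and the others at 1123 and 1106 RPKM, and 891 ± 9.51 RPKM with FP54. The small-subunit sum was 539 ± 67.2 and 459 ± 33.2 RPKM, and the groups overlapped for both subunits. The ratio was 1.92 ± 0.109 and 1.95 ± 0.155. Sums weigh the abundant genes most. With 3 libraries against 3, an exact permutation test cannot give p below 0.1, and none was run on these sums.

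**Figure D3:**
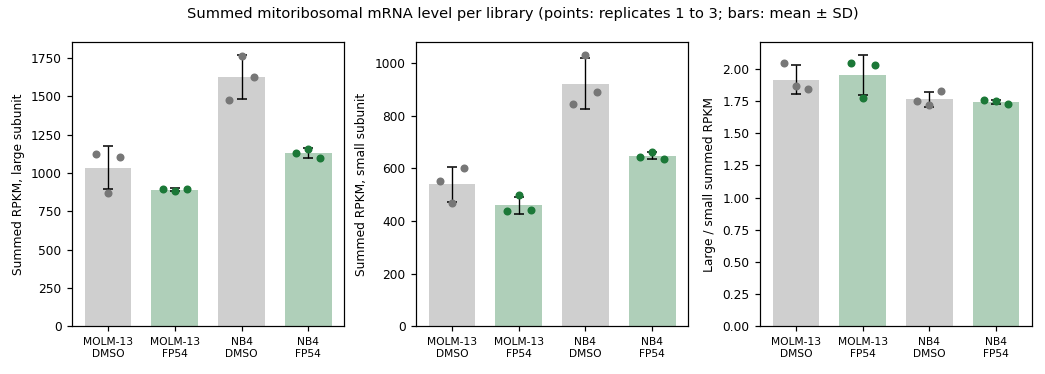
Summed RPKM of the large-subunit members (left) and the small-subunit members (middle), and their ratio (right), in each of the 12 libraries; points are replicates 1 to 3 from left to right, bars and error bars are the mean ± SD of 3 libraries. Both sums are lower with FP54 in NB4 cells without overlap, while the ratio stays near 1.75 in NB4 and between 1.77 and 2.05 in MOLM-13 libraries.

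Counted gene by gene, the large subunit of NB4 cells had 26 of 48 members called lower (54.2%) with a median of -0.54, and the small subunit 11 of 28 (39.3%) with a median of -0.36. Counting MRPS30 and MRPS18A with the large subunit and leaving out MRPS36 gave 27 of 50 and 10 of 25. Genes are not replicates, and no test of the subunits against each other was made. Within the large subunit, 19 of 29 genes with a bacterial homologue were called lower, and 7 of 18 genes listed as mitochondria-specific. In the small subunit these were 5 of 14 and 4 of 10. By site, 4 of 8 proteins of the exit tunnel, 3 of 7 of the central protuberance and 1 of 4 of the stalk were called lower in NB4 cells, against the background of 10.7%. In MOLM-13 cells the same sites had 1 of 8, 0 of 6 and 0 of 3, against the background of 9.04%.

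The stalk, which recruits translation factors to the large subunit, was mixed. MRPL10, which anchors it, had 15.6, 17.5 and 14.6 RPKM with DMSO and 18.8, 17.2 and 18.1 RPKM with FP54 in NB4 cells, with overlap (limma adjusted p = 0.13). MRPL11 at its base had a fitted change of -0.43 ± 0.11 in NB4 (limma adjusted p = 0.00662) and -0.41 ± 0.15 in MOLM-13 cells (limma adjusted p = 0.0834), short of the cutoff in both. MRPL12 fell by 0.70 on the log2 scale in NB4 cells (limma adjusted p = 0.00434) and was not tested in MOLM-13 cells. It had 124 to 152 reads per NB4 DMSO library and 39 to 53 per FP54 library. MRPL54 was at -0.497 ± 0.11 in NB4 cells (limma adjusted p = 0.00372), just short of the cutoff and without overlap.

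The paralogs MRPS18A, MRPS18B and MRPS18C, related to a single bacterial protein, did not move alike in NB4 cells. MRPS18A had 37.5, 50.3 and 36.9 RPKM with DMSO and 27.6, 30.2 and 26.9 RPKM with FP54 and was called lower (-0.54 ± 0.12, limma adjusted p = 0.00339). MRPS18B had 23.2, 27.1 and 20.3 RPKM and 26.5, 23.9 and 24.7 RPKM, with overlap and a fitted value of 0.10 that turned to -0.10 under median-ratio scaling. MRPS18C lay between them at -0.41 ± 0.11 (limma adjusted p = 0.00804). Differences between the paralogs were not tested, and 50.9% of the exon bases of MRPS18A and 40.2% of those of MRPS18C overlap a gene on the other strand, with the use of strand in counting not given in the sources used here. In MOLM-13 cells the 3 fitted values were -0.09, 0.13 and -0.01, all with overlapping groups. MRPS30, the large-subunit protein with a small-subunit symbol, was at -0.43 ± 0.09 in NB4 cells (limma adjusted p = 0.00334) and -0.23 ± 0.18 in MOLM-13 cells.

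Across the lines, 6 members were called lower in both: MRPL3, MRPL19, MRPL36, MRPL42, MRPL47 and MRPL50, all of the large subunit. Of the 8849 genes tested in both lines, 3.2% were called lower in both. The 6 are among 7 members called in MOLM-13 cells (background 35.3% of the genes called there) and among 35 called in NB4 cells (background 30.2%), of the 73 tested in both. By adjusted p below 0.05 without the fold cutoff, 8 members were lower in both lines, among them MRPS15 and MRPS35 of the small subunit. MRPS15 was at -0.43 in MOLM-13 cells (limma adjusted p = 0.0481), short of the fold cutoff, and MRPS35 was not called in NB4 cells. The share of all genes lower in both lines by adjusted p was not counted. The log2 fold changes of the lines correlated weakly across the 73 genes (Pearson r = 0.21, Spearman rho = 0.30). This is a description over genes that share libraries.

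**Figure D4:**
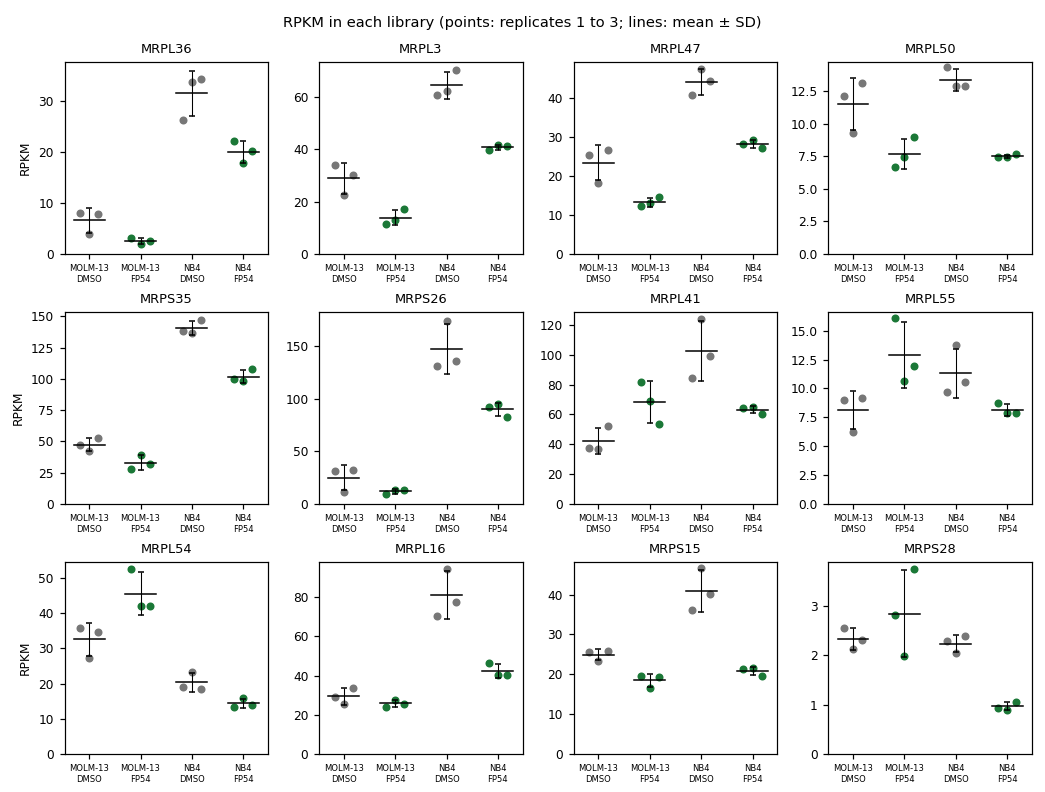
RPKM of 12 members in every library (points, replicates 1 to 3 from left to right; lines, mean ± SD of 3 libraries), with DMSO in grey and FP54 in green; each axis starts at 0. MRPL36, MRPL3, MRPL47 and MRPL50 are lower with FP54 in both lines, MRPL41, MRPL55 and MRPL54 are higher in MOLM-13 and lower in NB4 cells, and DMSO replicate 2 of MOLM-13 cells is low for MRPL36 and MRPS26.

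The effect of FP54 itself was compared between the lines by an interaction over the 12 libraries. The change was more negative in NB4 cells for 8 of 73 members at an adjusted p below 0.05 (background 3.75% of 8849 genes) and more positive for 0 (background 10.5%). Of the 8, 6 belong to the large subunit (MRPL16, MRPL40, MRPL41, MRPL46, MRPL54 and MRPL55) and 2 to the small (MRPS15 and MRPS28). The count fell to 4 without NB4 FP54 replicate 2 (2.25% of all genes) and to 5 without NB4 DMSO replicate 3 (2.69% of all genes) or FP54 replicate 3 (2.29%). It was 19 under median-ratio scaling, where 9.41% of all genes were more negative in NB4 cells. Without MOLM-13 DMSO replicate 2, 8 members were more negative in NB4 cells (3.91% of all genes) and 4 more positive (12.9% of all genes).

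MRPL41 had the largest difference. Its values in NB4 cells were 84.3, 124 and 99.0 RPKM with DMSO and 64.5, 64.7 and 60.3 RPKM with FP54, so that it fell there by 0.68 on the log2 scale and rose in MOLM-13 cells. The difference of -1.38 ± 0.25 (SE) had a limma adjusted p of 0.00189. MRPL55 went from 9.68, 13.7 and 10.5 RPKM to 8.71, 7.84 and 7.83 RPKM in NB4 cells, and MRPL54 from 19.1, 23.3 and 18.6 RPKM to 13.2, 15.9 and 13.9 RPKM. Both pairs of groups were free of overlap, below the controls in NB4 and above them in MOLM-13 cells. The differences were -1.12 ± 0.26 for MRPL55 and -0.98 ± 0.20 for MRPL54 (limma adjusted p = 0.0097 and 0.00433). MRPS28 differed by -1.37 ± 0.27 (limma adjusted p = 0.00316), on between 18 and 98 reads per library. For MRPL36 the lines were not shown to differ (0.63, limma adjusted p = 0.235).

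**Figure D5:**
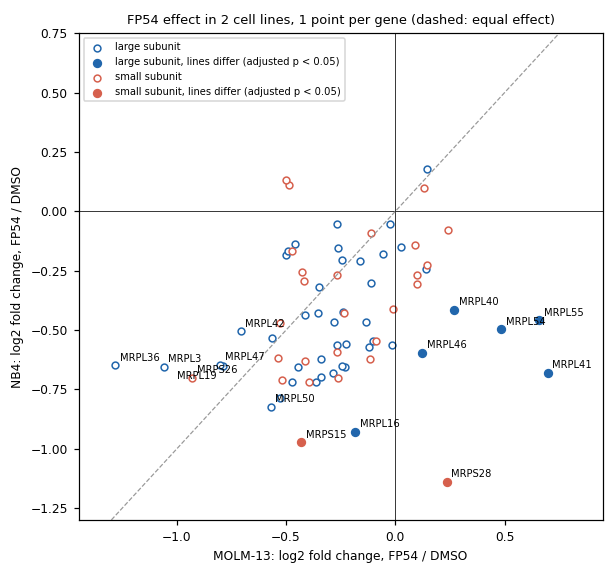
Fitted log2 fold change (FP54 over DMSO) in MOLM-13 (horizontal) and NB4 cells (vertical) for the 73 genes tested in both, 1 point per gene, coloured by subunit; filled points differ between the lines at an adjusted p below 0.05, and the dashed line marks equal effects. The 8 filled points lie below the dashed line, with MRPL41, MRPL54, MRPL55, MRPL40, MRPL46 and MRPS28 right of 0, and MRPL36 and MRPL3 lie farthest left.

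Promoter sequences are shown for members called lower in both lines, where a motif match lay upstream of the start. RefSeq promoters (GRCh38.p14, 250 bases before to 50 after each start) were found for 69 of the 78 genes, with 85 promoters. Capitals mark the match: CACGTG (E-box, recognized by MYC and relatives), CCGGAAG (core of ETS-family sites, or CTTCCGG on the other strand) and AAGATGGC (core of YY1 sites, or GCCATCTT on the other strand). Both strands were searched. Of the members called lower in both lines, MRPL42 and MRPL50 are not shown, since their only match was a YY1 core after the start, at positions 8 and 23. MRPL19 had no match.
MRPL36, E-box at position -56, chr5:1799876-1799905, minus strand: acgtgggcacgcCACGTGaccccccccccc
MRPL36, YY1 core at position -35, chr5:1799854-1799883, minus strand: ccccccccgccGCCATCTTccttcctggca
MRPL3, ETS core at position -32, chr3:131502985-131503014, minus strand: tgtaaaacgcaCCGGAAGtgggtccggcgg
MRPL47, ETS core at position -39, chr3:179604659-179604688, minus strand: ggcttgagacgCCGGAAGtgacgctatcgt
MRPL47, YY1 core at position -92, chr3:179604712-179604741, minus strand: ggcaggatgtgGCCATCTTaagtgagggca

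The ETS core was in a promoter of 30 of the 69 genes (43.5%), compared with 25.4% of the 8085 genes tested in NB4 cells that had a promoter and 10.3% of all 35116 promoters. The YY1 core was in 21 (30.4%), compared with 7.35% and 2.89%. Its letters include ATG and may therefore lie over a start codon in the last bases of the window. The match lay before the start of transcription in MRPL32, MRPL36, MRPL47, MRPL52 and MRPS12. In the other members with a YY1 core it lay after that start, at positions 6 to 35. The E-box was in 9 (13.0%, against 13.2% and 7.26%) and the NRF1 core GCATGCGC in 6 (8.7%, against 7.17% and 3.05%). Among members called lower in NB4 cells, 14 of 31 with a promoter held the ETS core and 13 of 31 the YY1 core. Among those tested and not called the numbers were 15 and 7 of 36. In MOLM-13 cells the ETS core was in 2 of 7 members called lower and in 26 of the other 57 tested, and the YY1 core in 4 of 7 and 15 of 57. A match is a stretch of letters, and no binding was measured here.

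The other parts of the mitochondrial translation machinery were read from lists of genes. The shares of all genes called were those given above, 9.04% lower and 9.3% higher in MOLM-13 cells and 10.7% lower and 18.6% higher in NB4 cells. Of 5 mitoribosomal proteins that carry other names, 2 were called lower in each line. Under quantile normalization 0 were called in MOLM-13 cells (9.62% of all genes), where both calls lay just past the fold cutoff. Under median-ratio scaling 4 were called lower in NB4 cells (20.4% of all genes). AURKAIP1 of the small subunit fell from 58.3 ± 8.76 to 40.6 ± 3.03 RPKM (SD, n = 3) in MOLM-13 cells (-0.51, limma adjusted p = 0.0388) and from 121 ± 28.7 to 61.6 ± 3.48 RPKM in NB4 cells (-0.95, limma adjusted p = 0.000333). GADD45GIP1 of the large subunit fell in NB4 cells (-0.90, limma adjusted p = 0.00136) and was at -0.62 in MOLM-13 cells (limma adjusted p = 0.0783). DAP3, a GTP-binding protein of the small subunit, fell in MOLM-13 cells (-0.50, limma adjusted p = 0.0397) and stood at -0.03 in NB4 cells. PTCD3 and CHCHD1 were between -0.48 and -0.33 in both lines and not called.

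Of 24 assembly factors, 4 of 21 tested were called lower in MOLM-13 cells, and 7 of 22 lower and 1 higher in NB4 cells. These are 19.0% lower in MOLM-13 cells (background 9.04%), and 31.8% lower and 4.55% higher in NB4 cells (background 10.7% and 18.6%). C1QBP, a matrix protein linked to mitoribosome assembly, fell from 114 ± 22.0 to 58.7 ± 8.6 RPKM (SD, n = 3) in MOLM-13 cells (-0.95, limma adjusted p = 0.0084) and by 0.52 in NB4 cells. The rRNA methyltransferases MRM3 (-1.09, limma adjusted p = 4.61e-05) and MRM1 (-0.84, limma adjusted p = 0.0032) fell in NB4 cells. YBEY, an endoribonuclease, rose there by 0.62 (limma adjusted p = 0.00122), a call lost under both median-ratio scaling and quantile normalization. MTERF4, a partner of an rRNA methyltransferase, was at 0.46 in NB4 cells, short of the cutoff. RBFA was at -0.82 and NOA1 at 0.30 in MOLM-13 cells, neither called.

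Of 16 translation factors, 2 of 15 tested were called lower in MOLM-13 and 3 of 15 in NB4 cells, with none called higher. These are 13.3% against 9.04% and 20.0% against 10.7% of all genes. In MOLM-13 cells 2 were called lower under median-ratio scaling (9.96% of all genes) and 1 under quantile normalization (6.67%, against 9.62%). By adjusted p, 3 of 15 were lower in NB4 cells (background 22.0%), but 12 under median-ratio scaling (36.6% of all genes) and 7 under quantile normalization (28.1% of all genes). TUFM, the mitochondrial elongation factor Tu, fell from 129 ± 22.6 to 67.3 ± 6.96 RPKM (SD, n = 3) in MOLM-13 cells (-0.92, limma adjusted p = 0.0062) and from 220.1 ± 37.6 to 150.4 ± 5.1 RPKM in NB4 cells (-0.54). SLIRP, which binds mitochondrial mRNAs, fell by 0.91 in NB4 cells (limma adjusted p = 3.86e-05). GFM1, the elongation factor G of mitochondria, fell by 0.61 in NB4 cells (limma adjusted p = 0.00276) and was at -0.77 in MOLM-13 cells (limma adjusted p = 0.0868). OXA1L (0.33 and 0.01), TACO1 (0.35 in MOLM-13 cells) and GUF1 (0.04 in NB4 cells) were not called. The proteins of the cytosolic ribosome, a list made from gene symbols after the tables were open, had medians of 0.03 in MOLM-13 and 0.26 in NB4 cells. In NB4 cells 3 of 82 cytosolic genes were called lower (3.66%, background 10.7%) and 5 higher (6.1%, background 18.6%). By adjusted p (below 0.05), 39 had increased (47.6%, background 29.8%) and 4 had decreased (4.88%, background 22.0%). The FP54 values lay above all DMSO values for 41 (background 34.3%). The counts of increases depended on the scaling. Under median-ratio scaling 0 cytosolic genes were called higher (12.02% of all genes) and 6 were higher by adjusted p (19.2% of all genes), with a median of 0.06. Under quantile normalization these were 18 (12.99% of all genes) and 57 (23.7% of all genes), with a median of 0.33.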

How the data were processed

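The authors trimmed reads with Cutadapt 4.8, removed duplicates with Clumpify, aligned to hg38 with STAR 2.7.11b, counted reads on protein-coding genes of an earlier GENCODE release than the one used below with featureCounts 2.0.3 and deposited RPKM per gene and library. How gene lengths and library totals were taken, the strand setting and the treatment of reads on overlapping genes are not given in the sources used here. Removal of duplicates without molecular identifiers can flatten abundant genes. No table column was without a sample. The cell line of the NB4 table is known from the table's name.

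Whole reads were recovered from RPKM with union exon lengths of GENCODE release 44 (hg38): 98.12% to 98.46% of values below 500 reads came out whole within 0.02 read. These reads were used for limma-voom as an alternative and for the read numbers given. RPKM were fitted as log2(RPKM + 0.1) with limma 3.58.1 (R 4.3.3; trended eBayes, Benjamini-Hochberg adjustment over all genes) for genes with a mean of at least 1 RPKM in a line, without a replicate block; fold changes of low genes are understated on this scale. The difference between lines was an interaction over 12 libraries. Calls used p below 0.01 and 0.5 on the log2 scale, and the interaction an adjusted p below 0.05. The fits were tested on simulated data. Figures and counts used Python 3.11.15 with pandas 2.3.3 and matplotlib 3.10.9.

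Genes named were MRPL36; per line and subunit the 4 lowest and 2 highest fitted values; every member called higher; the highest and lowest DMSO levels; the stalk, MRPS18 paralogs and MRPS30; the 3 largest interactions; and the 2 lowest and 2 highest of each pathway list. MRPL40, MRPL42 and MRPL46 were chosen after their values were seen. The members and gene lists were chosen with earlier results of these data known. Alternatives were other pseudocounts, filters, scalings, a replicate block, eBayes without a trend, limma-voom and leaving out each library. The scalings of the pathway lists were added after seeing the data. The m6A-seq and polysome samples were not analysed here.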

Additional observations from a re-analysis of the deposited data

Results flagged for a closer look

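For 8 mitoribosomal genes the FP54 effect differed between the cell lines by the interaction test, in each case toward a lower value in NB4 cells. The difference (NB4 minus MOLM-13, log2) was -1.38 for MRPL41, -1.37 for MRPS28, -1.12 for MRPL55 and -0.98 for MRPL54. It was -0.75 for MRPL16, -0.72 for MRPL46, -0.68 for MRPL40 and -0.54 for MRPS15. Limma adjusted p ranged from 0.00189 for MRPL41 to 0.0422 for MRPS15. MRPL46 is a low gene in MOLM-13 cells, with 1.454, 1.505 and 1.450 RPKM with DMSO and 1.61, 1.66 and 1.56 RPKM with FP54, and it had 3.04, 3.52 and 3.52 RPKM against 2.40, 1.96 and 2.21 RPKM in NB4 cells. MRPL40 had 18.2, 12.9 and 17.6 RPKM against 21.4, 18.8 and 18.05 RPKM in MOLM-13 cells, and 34.0, 41.6 and 36.2 RPKM against 28.0, 29.7 and 25.9 RPKM in NB4 cells. The NB4 FP54 libraries were shallower than their controls, and the part of depth in these differences was not tested.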

How the results depend on the processing

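The NB4 count of members called lower was between 31 and 42 with 1 library left out, against 10.1% to 11.3% of all genes. With all libraries it was 37 (10.7% of all genes). No NB4 member was called higher in any setting run, against 12.02% or more of all genes. In MOLM-13 cells, 3 members (4.11%, against 2.60% of all genes) were called lower without a filter, and 4 of the 64 left (6.25%, against 9.22%) with a filter at 5 RPKM, where 7 were called otherwise. Leaving out 1 library gave 3 to 26 (4.86% to 12.6% of all genes), with 26 without DMSO replicate 2. Members called higher there were 2 in the main fit (9.3% of all genes), 0 without a filter (3.96%) and 1 with eBayes without a trend (9.37%). With 1 library left out they were 0 to 2 (5.68% to 11.6% of all genes). The MOLM-13 small-subunit median ranged from -0.42 to -0.15 with 1 library left out. The NB4 medians were -0.74 (large) and -0.56 (small) under median-ratio scaling, and the large-subunit median ranged from -0.57 to -0.45 with 1 library left out. The members that differed between the lines numbered 8, all more negative in NB4 cells (3.75% of all genes). They were 19 under median-ratio scaling (9.41%) and 5 with the replicate block (2.46%), again all more negative. With 1 library left out, 4 to 9 members were more negative (2.25% to 5.06% of all genes). The 12, without MOLM-13 DMSO replicate 2, included 4 that were more positive in NB4 cells, against 12.9% of all genes. Under quantile normalization 11 members were more negative in NB4 cells (9.19% of all genes) and 1 was more positive (9.70% of all genes). Same-numbered libraries did not deviate together (r from -0.26 to -0.06 in MOLM-13 and from -0.14 to 0.12 in NB4 cells). The numbers were therefore not taken as pairs. In MOLM-13 cells each DMSO library did deviate together with a differently numbered FP54 library. These were DMSO 1 with FP54 3 (r = 0.59), DMSO 2 with FP54 1 (r = 0.49) and DMSO 3 with FP54 2 (r = 0.47). All other r in this line were negative. The labels name no batch, and no fit matched libraries this way. The MOLM-13 p-values and overlaps of groups thus leave out any such pairing, and its part in the calls was not tested. With the block of same-numbered libraries, 7 members were called lower in MOLM-13 cells (9.06% of all genes), 6 of them among the original 7. MRPS35 was lost and MRPS26 gained. The 2 called higher stood against 8.41% of all genes. Members lower at an adjusted p below 0.05 went from 9 (12.3%, against 9.32% of all genes) to 5 (6.85%, against 8.21%). In NB4 cells all 37 were kept (10.7% of all genes called lower). Fitted values near 0 changed sign. In NB4 cells, median-ratio scaling gave -0.019 for MRPL10, -0.089 for MRPS16, -0.093 for MRPS17, -0.10 for MRPS18B and -0.063 for MRPS25, and quantile normalization 0.050 for MRPL58 and -0.39 for MRPS17. With 1 NB4 library left out, MRPS6 ranged from -0.15 to 0.033 and MRPS18B from -0.00296 to 0.20. In MOLM-13 cells, MRPS18C was 0.0103 with limma-voom and ranged from -0.094 to 0.052 with 1 library left out. Over all values of single genes under these settings, 1099 kept direction and side of the cutoff, 30 became calls, 72 lost the call and 13 changed sign. Causes were not tested.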
